A study of Mus musculus with 4 samples.

Results

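Cluster 1 is the larger of the luminal progenitor clusters in a single-cell RNA sequencing data set of sorted luminal cells of the mouse mammary gland. Its members were taken by the cluster number in the deposited table, and 5385 of 32439 cells carried number 1. The cells came from 6-week-old C57BL/6N females of 2 genotypes, Erbb3 +/+;MMTV-Cre (WT) and Erbb3 V943R/V943R;MMTV-Cre (mutant), and both genotypes therefore carried the Cre transgene. The V943R allele is conditional. Before Cre acts it makes the normal receptor from a floxed cassette. After Cre acts it makes a receptor whose kinase domain is impaired in activating its ERBB partner. MMTV-Cre is driven by a viral promoter that is active in mammary epithelium, and the share of cells in which it had acted was not measured here. Thoracic and abdominal glands of 3 animals were combined for each genotype, and each pool was sequenced as 2 droplet libraries, called A and B. With 1 pool per genotype no test between genotypes was possible, so no p-value is given, and every interval is a 95% interval for counting error only.

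Luminal progenitors are the hormone receptor-negative cells of the luminal layer, from which the milk-producing alveolar cells arise in pregnancy. They are known by the receptor tyrosine kinase Kit, by the transcription factor Elf5, which drives alveolar differentiation, and by secreted defence and milk proteins. Mature luminal cells carry estrogen, progesterone and prolactin receptors and send growth signals such as amphiregulin to their neighbours. ERBB3 is a receptor of the neuregulins that has little kinase activity of its own and signals by pairing with another ERBB receptor.

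In cluster 1, WT libraries A and B gave 1341 and 1361 cells, and mutant libraries A and B gave 1302 and 1381 cells. These cells held between 3026795 and 3641329 UMIs (unique molecular identifiers, which count captured transcripts) per library. The cells were shallow. The median cell of cluster 1 had 1854 UMIs and 1140 genes, whereas the medians of the other clusters lay between 1447.5 and 6192 UMIs. Levels are given in CPM, which is the UMIs of a gene per 1000000 UMIs of the same library or cluster, and they are not corrected for gene length. The libraries shared between 71 and 111 cell barcodes pairwise, and at most 3 of these were in cluster 1 in both libraries.

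The 8 markers by which the cells are named were high in cluster 1 in all 4 libraries. The clusters were built from the genes of these same cells, so the differences between clusters below are a description and no test of them was made. Wfdc18, a small secreted protein of the whey acidic protein family (GRCm38, chr11:83709015-83711348), was the most abundant, at 13217 and 13604 CPM in WT libraries A and B, and at 13517 and 13469 CPM in mutant libraries A and B. Trf, which encodes the iron carrier transferrin, stood at 2186 CPM, the milk protein gene Csn3 (kappa-casein) at 1978 CPM and Ltf (lactoferrin, an iron-binding defence protein) at 1534 CPM over all libraries. Cd14, a co-receptor for bacterial lipopolysaccharide, stood at 1057 CPM and the retinaldehyde dehydrogenase gene Aldh1a3 at 499 CPM. Elf5 (chr2:103411688-103450989) had 336 CPM and Kit (chr5:75574916-75656722) had 266 CPM. In clusters 4 to 11, which are classed as mature luminal in the table, the same 8 genes had between 2.8 CPM (Kit) and 112 CPM (Wfdc18). On the log2 scale the ratio of cluster 1 to clusters 4 to 11 lay between 3.98 (3.90 to 4.05) for Elf5 and 7.30 (7.21 to 7.40) for Ltf. Wfdc18 was found at 88.0 to 173 CPM in each of clusters 4 to 11, and what part of this came from free RNA was not tested. Among the 11 luminal clusters, cluster 1 ranked first for each marker except Csn3, which was higher in cluster 2, the other luminal progenitor cluster (2384 CPM). Trf overlaps the gene Gm20425 on the same strand, and their reads may not be told apart.

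**Figure D1:**
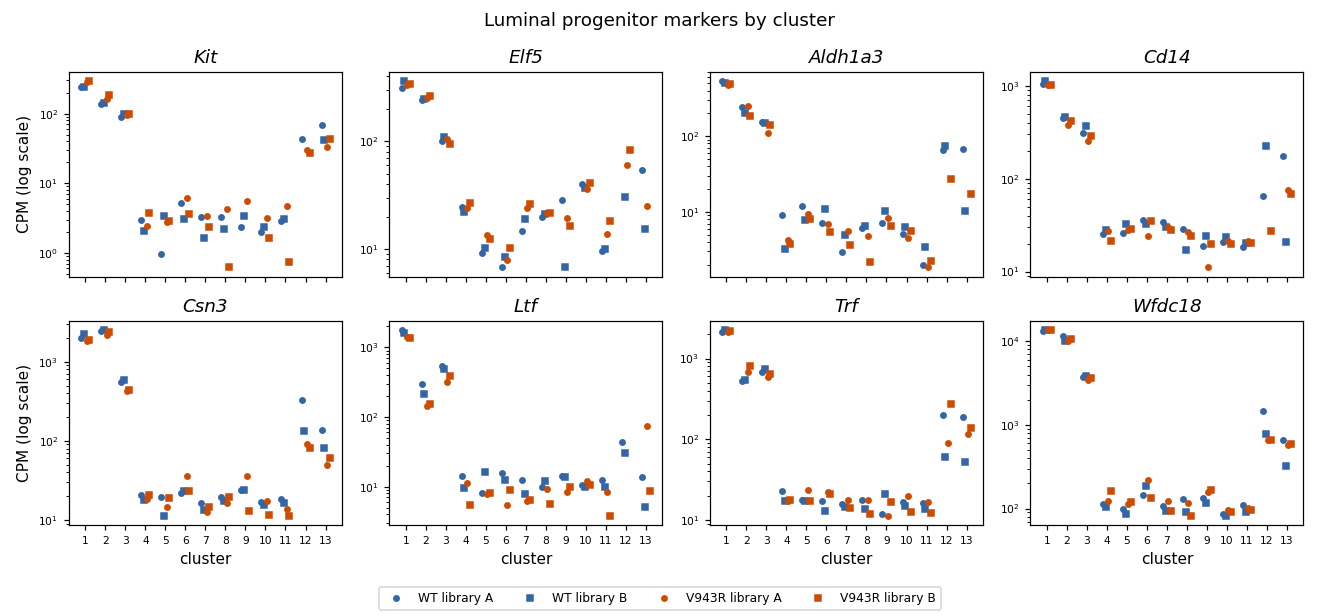
Each panel plots the level of 1 luminal progenitor marker (CPM, log scale) against the cluster number, with 1 point per library (blue WT, orange mutant; circle A, square B) and libraries at 0 left out. All 8 markers are high in clusters 1 to 3 and low in clusters 4 to 11, where Kit has 2.8 CPM against 266 CPM in cluster 1.

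Single cells showed the markers together. At least 4 of the 8 markers had a UMI in 86.9% of the WT and 86.2% of the mutant cells of cluster 1, against 0.522% and 0.739% of the mature luminal cells, most of which were deeper. After each cell was thinned to 1000 UMIs, which kept 2672 of 2702 WT and 2517 of 2683 mutant cells of cluster 1, these shares were 66.0% and 63.9% in cluster 1 and 0.0141% and 0.0105% in clusters 4 to 11. Cluster 2 lay between them after thinning, with 33.1% and 35.6%, and so did the luminal intermediate cluster 3, with 21.1% and 16.2%.

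The word quiescent in the name of the cluster was checked against 16 genes of G2 phase and mitosis. Together they had 256 to 355 CPM in the libraries of cluster 1, 5392 CPM in cluster 2 and 126 CPM in the mature luminal clusters 4 and 7 to 11, which are those with few cycling cells. Of the WT cells of cluster 1, 77.5% had no UMI of any of these genes, and of the mutant cells 75.0% had none. In cluster 2, whose median cell was deeper (3641 UMIs), these shares were 0.835% and 1.36%. After thinning to 1000 UMIs, they were 88.1% and 85.7% in cluster 1, 5.24% and 6.70% in cluster 2, and 90.9% and 89.8% in clusters 4 and 7 to 11. Mki67, the usual marker of cycling cells, stood at 17.4 CPM in cluster 1, at 255 CPM in cluster 2 and at 4.0 CPM in clusters 4 and 7 to 11. A Mki67 UMI was found in 0.711% (WT) and 0.914% (mutant) of the thinned cells of cluster 1, and in 23.5% and 21.7% of those of cluster 2. Part of cluster 1 carried cycling transcripts: 6.03% of WT and 6.63% of mutant cells had 3 or more UMIs of the list, and 58.3% of the Mki67 UMIs of cluster 1 lay in 260 cells that are described below. Without those cells Mki67 stood at 7.1 and 7.5 CPM in WT and at 6.4 and 12.5 CPM in the mutant.

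Genes of DNA replication were not at the level of resting mature luminal cells. The 18 S phase genes summed to between 748 and 810 CPM in the libraries of cluster 1, to 236 CPM in clusters 4 and 7 to 11, and to 1662 CPM in cluster 2. Of these genes, 17 were higher in cluster 1 than in clusters 4 to 11 together, as were 66.4% of all genes with at least 50 UMIs in cluster 1, and the median log2 ratio was 0.54 for the list and 0.22 for all these genes. Mcm6, a subunit of the replicative helicase, had 139 CPM in cluster 1, 75.5 CPM in clusters 4 to 11 and 218 CPM in cluster 2. Of 18 cell cycle regulators, 14 had at least 50 UMIs in cluster 1. Of these, 8 were higher and 6 lower than in clusters 4 to 11, against 66.4% and 33.6% of all genes, with a median log2 ratio of 0.31. The kinase gene Cdk6 stood at 100 CPM against 3.0 CPM in clusters 4 to 11, the cyclin gene Ccnd1 at 823 against 443 CPM, and the retinoblastoma gene Rb1 at 52.6 against 7.2 CPM. The CDK inhibitor gene Cdkn1a was lower in cluster 1, at 66.2 against 265 CPM.

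Across all genes, 814 of the 12022 with at least 50 UMIs in cluster 1 (6.77%) were at least 4-fold higher in cluster 1 than in clusters 4 to 11 in every library. Of the 10 largest ratios, several belong to genes of low count. Wfdc17, a neighbour of Wfdc18 in the same protein family, had 242 CPM against 0.97 CPM, and Ntng1, which encodes the membrane protein netrin-G1, had 69.3 against 0.33 CPM. Ankrd1, a nuclear cofactor that is a known target of the YAP proteins, had 14.8 against 0.06 CPM, and the transcription factor gene Sox14 had 8.9 against 0.04 CPM. Ptger2 (a prostaglandin E2 receptor) and Pde7b (a cAMP phosphodiesterase) rested on 79 and 51 UMIs in cluster 1 and on 3 and 2 UMIs in clusters 4 to 11. The other 4 were non-coding genes, of which Gm37735 lies inside Erbb4 on the same strand, Gm10115 inside Celf2 and Gm12305 inside Ntn1. Their reads cannot be told from unspliced reads of those genes.

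Several transcription factors of the alveolar and progenitor programme were higher in cluster 1 than in the mature luminal cells. Of 15 such genes, 14 had at least 50 UMIs in cluster 1. Of these, 8 met the 4-fold rule, against 6.77% of all genes with as many UMIs, and 3 were lower in cluster 1. Sox10, a factor of neural crest and mammary progenitors, stood at 239 CPM against 2.4 CPM in clusters 4 to 11. Ehf, an Ets factor related to Elf5, had 281 against 11.4 CPM, Tfap2c (AP-2 gamma) 161 against 6.2 CPM, Bcl11a 43 against 1.0 CPM, and the LIM protein gene Lmo4 620 against 53.1 CPM. Cebpb, a factor needed for alveolar growth, had 976.9 against 172 CPM. Sox9, Runx1 and Stat5a went the other way. Sox9 stood at 343 against 631 CPM, Runx1 at 114 against 262 CPM, and Stat5a, which carries the prolactin signal, at 86.9 against 170 CPM. The mature luminal markers were low in cluster 1: all 11 with a UMI there were below clusters 4 to 11, against 33.6% of all genes, with the prolactin receptor Prlr at 232 against 2051 CPM, the estrogen receptor Esr1 at 8.6 against 44.0 CPM and the progesterone receptor Pgr at 16.9 against 151 CPM. Tnfsf11 (RANK ligand) had 0 UMIs.

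Milk genes were present in these glands of mice that were 6 weeks old. Of 16 milk and secretory genes, 10 had at least 50 UMIs in cluster 1 and 9 met the 4-fold rule, against 6.77% of all genes with as many UMIs. Mfge8, a protein of the milk fat globule membrane, stood at 2654 CPM against 68.1 CPM, and Plin2, which coats lipid droplets, at 469 against 29.9 CPM. Lalba (alpha-lactalbumin, the cofactor of lactose synthesis; chr15:98480400-98482721) had 241 against 1.7 CPM, and Btn1a1 (butyrophilin, of the milk fat globule) had 106 against 1.0 CPM. The caseins other than Csn3 were scarce: Csn1s1 had 13.3 CPM, Csn1s2a 6.4 CPM and Csn2 5.2 CPM, and the whey protein gene Wap had 11 UMIs. Csn2 was uneven between libraries. Without 260 cells that are described below, it had 16.3 and 0 CPM in WT libraries A and B and 1.9 and 0.3 CPM in the mutant libraries. Of 22 mucosal defence genes, 16 had at least 50 UMIs and 10 met the rule, against the same 6.77%. Lcn2, which binds bacterial siderophores, stood at 4111 against 33.1 CPM, and Muc15, a membrane mucin, at 186 against 1.4 CPM. Of the 16 defence genes, 3 were lower in cluster 1, against 33.6% of all genes, among them Wfdc2, at 366 against 3228 CPM. Without the same 260 cells, Wfdc2 had 194 and 156 CPM in WT libraries A and B and 127 and 133 CPM in the mutant libraries. Igfbp5, which binds insulin-like growth factors, stood at 2220 against 18.3 CPM, and the cysteine protease inhibitor gene Cst3 at 3888 against 72.6 CPM.

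Receptors and ligands were compared between the same cells. The counts of genes that met the 4-fold rule below stand against 6.77% of all genes with at least 50 UMIs in cluster 1. Of the ErbB receptors, Egfr stood at 15.8 CPM in cluster 1 and 0.2 CPM in clusters 4 to 11, and Erbb4 at 9.5 against 0.1 CPM, while Erbb2 had 36.7 against 41.3 CPM and Erbb3 53.6 against 45.8 CPM. The EGFR ligand amphiregulin (Areg) had 356 CPM in cluster 1 and 4062 CPM in clusters 4 to 11, and Hbegf, another EGFR ligand, had 113 against 38.0 CPM. Nrg1, a ligand of ERBB3, had 5 UMIs in cluster 1. Of 13 genes that report activity of the ERK pathway, 6 met the 4-fold rule, among them Phlda1 at 1478 against 176 CPM, the ERK phosphatase gene Dusp6 at 381 against 51.8 CPM and the Ets factor gene Etv5 at 36.0 against 2.0 CPM. Of the 13, 3 were lower in cluster 1, against 33.6% of all genes, and Dusp4 had the lowest ratio. Among 16 receptors for signals from other cells, 15 had at least 50 UMIs and 5 met the rule. Of the 15, 3 were lower in cluster 1, against the same 33.6%, and Fgfr2 had the lowest ratio. Tnfrsf11a (RANK, the receptor for RANK ligand) stood at 13.4 against 0.7 CPM, Igf1r at 41.0 against 0.8 CPM, Fzd1, a Wnt receptor, at 36.3 against 1.6 CPM and Met at 39.5 against 3.4 CPM. Of 16 Notch pathway genes, 10 had at least 50 UMIs, Hey1 and Hey2 met the rule and 3 were lower in cluster 1. Hey1, a transcriptional target of Notch, had 347 against 2.9 CPM, Hes1, another target, had 523 against 530 CPM, and the ligand gene Jag1 had 6.7 against 45.7 CPM. Of 16 retinoid and aldehyde genes 9 had at least 50 UMIs. Of these, 4 met the rule, among them Aldh1a3, and 2 were lower in cluster 1.

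Keratins and markers of other cells were checked. Krt18 (5493 CPM) and Krt19 (4491 CPM), keratins of simple epithelia, were below their levels in clusters 4 to 11 (9345 and 12391 CPM), and Krt23 was above, at 125 against 1.1 CPM. The sorting marker Epcam stood at 2695 CPM. The basal keratin gene Krt5 had 28 UMIs and the basal transcription factor gene Trp63 had 20 UMIs among 5385 cells. Tagln, an actin-binding protein of contractile cells, had 141 CPM against 6.4 CPM in clusters 4 to 11, and the oxytocin receptor Oxtr 23.1 against 0.3 CPM. None of 8 immune or 6 fibroblast markers reached 50 UMIs, and 1 of 6 endothelial markers did (Egfl7, 64 UMIs). The leukocyte marker Ptprc had 1 UMI, and Cd3e, Emcn and Lum had 0 UMIs each.

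Cluster 2, the other luminal progenitor cluster, was the nearest comparison. Of 12082 genes, 466 were at least 1.5-fold higher in cluster 1 than in cluster 2 in every library (3.86%), and 584 were higher in cluster 2 (4.83%). The 10 largest ratios towards cluster 2 all belonged to genes of mitosis: Ccnb1, Nusap1, Plk1, Ube2c, Kif2c, Hmmr, Fam83d, Aspm, Kif14 and Kif23. Ube2c, which helps to degrade cyclins, had 26.1 CPM in cluster 1 and 790 CPM in cluster 2. The same rule took in 16 of 16 G2 and mitosis genes and 10 of 18 S phase genes. None of the 15 progenitor transcription factors met it in either direction, while 5 of the 8 luminal progenitor markers met it towards cluster 1.

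The genes higher in cluster 1 than in cluster 2 included several milk and defence genes. Ltf stood at 1534 CPM in cluster 1 and 201 CPM in cluster 2, Lalba at 241 against 25.5 CPM, Btn1a1 at 106 against 12.5 CPM, and Cck, the gene of the peptide hormone cholecystokinin, at 259 against 34.3 CPM. By list, 6 of 16 milk and secretory genes and 9 of 22 mucosal defence genes met the 1.5-fold rule, against 3.86% of all genes. The 10 largest ratios belonged to Scara5 (a ferritin receptor), the water channel gene Aqp1, Fam169b, Ankrd1, Gabrg3 (a GABA receptor subunit), Gm13889, 4930469K13Rik, Tac1 (the substance P precursor), Lalba and Ank (a phosphate transporter). Scara5, Fam169b and Gabrg3 had 1 UMI each in cluster 2, and Aqp1 had 2. Immediate-early genes also differed, and 5 of 13 immediate-early and heat-shock genes met the rule towards cluster 1, with Fos at 10344 against 6561 CPM.

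Cluster 1 could be split further, and whether the groups are kinds of cell was not tested. Re-clustering its cells with all genes gave 9 groups, of which 4 had more than 200 cells. Groups 5 to 9 held 24 to 152 cells each, and several were led by a single pair of overlapping genes (Pakap and Akap2, Itgam and Gm45700, Gm22752 and Gm5278). They are not described further. The genes that define a group were used to build it and are a description only.

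Group 2, with 1818 cells, was high in several milk and secretory genes. Lalba stood at 612 CPM in it and at 40.9 CPM in group 1, Btn1a1 at 269 against 17.6 CPM and Cck at 659 against 35.1 CPM. Cst3 had 8941 against 1057 CPM, Ltf 3365 against 659 CPM, and Lrg1, a secreted glycoprotein of inflammation, 689 against 78.8 CPM. This group held 78.3% of the Lalba UMIs of cluster 1 and 33.8% of its cells. Not all secretory genes followed it: it held 45.0% of the Csn3 UMIs and 29.9% of the Wfdc18 UMIs, of which group 1 held 48.3%.

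Group 1, with 2485 cells, was led by Ankrd1 (29.2 CPM against 1.0 CPM in group 2) and by genes of the actin cytoskeleton. Tpm2 (beta-tropomyosin) had 68.4 against 11.5 CPM and Tagln 220 against 63.6 CPM. The keratin gene Krt17 had 29.0 against 7.1 CPM, and Ctgf, like Ankrd1 a known YAP target, 26.6 against 6.6 CPM. Kit differed little between groups 1 and 2, at 279 and 305 CPM, and so did Elf5, at 341 and 414 CPM. The basal gene Krt5 was at 4.3 CPM in group 1.

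Group 3 had 453 cells with high Spry2 (726 CPM against 91.5 CPM in group 1), an inhibitor of receptor tyrosine kinase signalling, Notch2 (311 against 38.8 CPM) and Actb (19632 CPM, against 3843 CPM in the rest of cluster 1). Group 4 was small and went against the name of the cluster. Its 260 cells had a median of 7142.5 UMIs and 3110 genes, and it held 78.3% of the Upk3a UMIs of cluster 1, 74.2% of those of Cited1, 65.1% of those of Fgb and 55.6% of those of Prlr. Upk3a (uroplakin 3A) stood at 2332 CPM in it and Cited1, a mature luminal cofactor, at 1017 CPM. At the same time it had 6867 CPM of Wfdc18 and 124 CPM of Kit, lower than in groups 1 to 3. No doublet caller was used, and whether these are pairs of cells in 1 droplet was not tested.

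**Figure D2:**
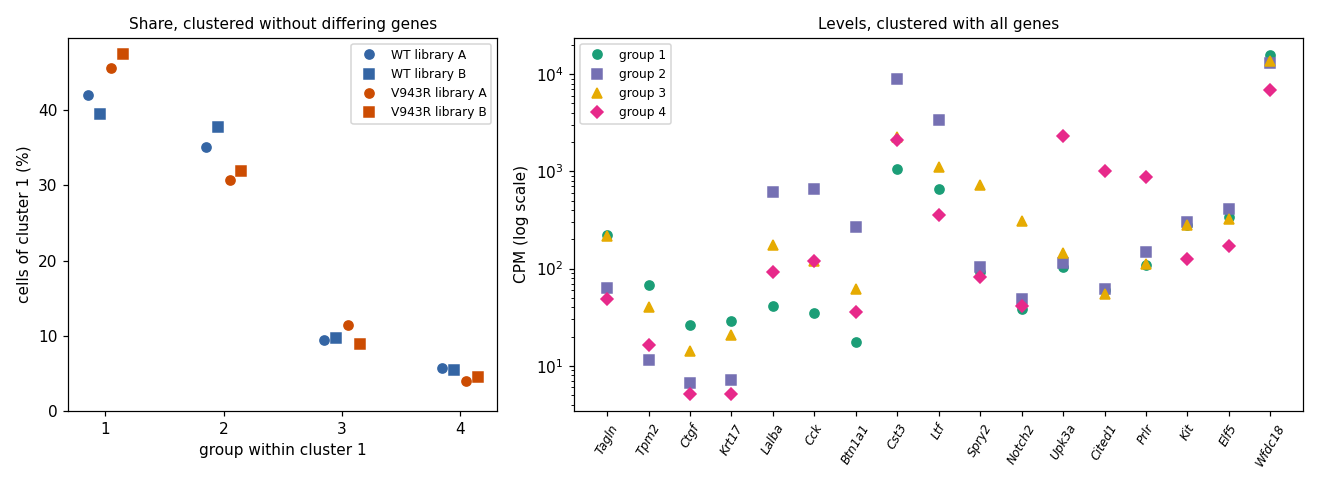
The left panel plots the share of the cells of cluster 1 (%) that fell in groups 1 to 4 for each library (blue WT, orange mutant) when genes that differed between genotypes were left out, and the right panel plots levels (CPM, log scale) of leading genes in groups 1 to 4 of the clustering with all genes. Group 2 held 35.05% and 37.8% of WT cells and 30.6% and 31.9% of mutant cells, and Lalba, Cck, Btn1a1, Cst3 and Ltf are highest in group 2.

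To compare group sizes between genotypes, the cells were clustered again without the 1339 genes whose level was at least 25% higher in 1 genotype in cluster 1 with libraries that did not overlap. This again gave 9 groups, of which group 2 kept 1586 of the 1818 cells it had with all genes, and group 1 kept 2135 of 2485. Group 1 then held 42.0% and 39.5% of the cells in WT libraries A and B and 45.5% and 47.4% in mutant libraries A and B. Group 2 held 35.05% and 37.8% of the WT and 30.6% and 31.9% of the mutant cells. The mutant libraries thus lay above both WT libraries for group 1 and below both for group 2, by 40.7% against 46.5% and 36.4% against 31.3% over the pooled cells. Group 3 overlapped between genotypes, and group 4 held 5.63% of WT and 4.25% of mutant cells. No test of these shares was possible with 1 pool per genotype.

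Of the cells of WT libraries A and B, 13.9% and 15.1% fell in cluster 1, and of mutant libraries A and B 19.0% and 19.9% did, which gave a mutant to WT ratio of 1.34 (1.28 to 1.41). The shallowest cells of cluster 1 had 869 and 949 UMIs in WT libraries A and B, and 639 and 764 UMIs in mutant libraries A and B. Cells under 1000 UMIs made up 1.11% of the WT and 6.19% of the mutant cells of cluster 1. What part of the ratio of shares this makes up was not tested. The ratio was also not the same at all depths. When all 32439 cells were divided by their UMIs into 5 bins of about equal cell number, the lowest bin (606 to 2207 UMIs) held 62.5% of the WT and 60.7% of the mutant cells of cluster 1, and the ratio there was 1.26 (46.0% of WT and 57.8% of mutant cells). In the next bins the ratio was 2.06 (11.96% and 24.6%), 1.68 and 1.5. In the highest bin it was 0.988 (0.803 to 1.21), with 5.31% of WT and 5.24% of mutant cells. Relative to luminal progenitors alone (clusters 1 and 2), the share of cluster 1 was alike in both genotypes, with a ratio of 1.01 (0.991 to 1.03). Without the mature luminal cluster 11 the ratio was 1.19. A share says nothing of the number of cells in a gland, since a larger share of 1 cluster and smaller shares of the others cannot be told apart.

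**Figure D3:**
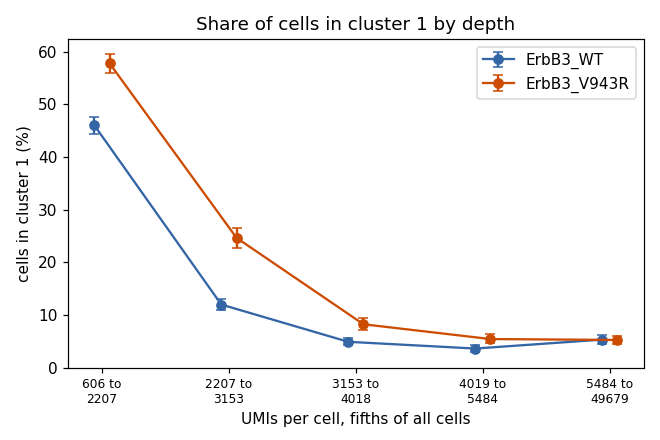
The share of cells (%) in cluster 1 is plotted for 5 bins of all cells by UMIs per cell, for WT (blue) and mutant (orange), with 95% exact binomial intervals as bars. The mutant share is above the WT share in the lower 4 bins and the shares meet in the highest bin, at 5.31% and 5.24%.

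The targeted gene was compared first between genotypes. Erbb3 (chr10:128567523-128589652, minus strand) had 63.1 and 72.4 CPM in WT libraries A and B of cluster 1, and 40.6 and 38.4 CPM in mutant libraries A and B. Both mutant libraries lay below both WT libraries, and the log2 ratio of mutant over WT was -0.79 (-1.01 to -0.56). The paper describes the floxed cassette as ending in a human growth hormone 3' untranslated region. The libraries read the 3' end of transcripts, so those of alleles on which Cre had not acted may be missed. What part of the Erbb3 ratios this makes up was not tested. The ratio was -1.21 (-1.69 to -0.75) in cluster 2 and -1.11 (-1.21 to -1.02) in clusters 4 to 11, and whether these differ was not tested. Clusters 4 to 11 were not made up alike, since cluster 11 gave 20.2% of their WT cells and 6.97% of their mutant cells. Ratios for clusters 4 to 11 here and below pool them, and the Erbb3 ratio was -1.11 also without cluster 11, an alternative chosen after seeing the data. At least 1 Erbb3 UMI was found in 14.5% of WT and 9.09% of mutant cells of cluster 1, or in 6.51% and 3.85% after thinning to 1000 UMIs. The microRNA gene Mir6917 lies within Erbb3 on the same strand. Of the other receptors, Erbb2 had 42.6 and 30.8 CPM in WT and 37.7 and 36.8 CPM in the mutant, and the libraries overlapped for Erbb2, Egfr and Erbb4.

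Across cluster 1, 10380 genes had at least 50 UMIs in the genotype with more. By a rule of 1.5-fold with both mutant libraries beyond both WT libraries, 224 of them were higher in the mutant (2.16%) and 78 were lower (0.751%). The median log2 ratio over all 10380 genes was 0.02. Only 13 genes in each direction had 500 or more UMIs, whereas 4514 of all 10380 genes did.

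Many of the higher genes were pseudogenes. Of the 224, 132 (58.9%) were annotated as pseudogenes, compared with 793 of the 10380 genes (7.64%), and of the 78 lower genes 3 were. Pseudogenes as a class had a median log2 ratio of 0.34 in cluster 1, and of 0.30, 0.34 and 0.33 in cluster 2, cluster 3 and clusters 4 to 11. The pseudogenes took 5.09% and 4.58% of the UMIs of cluster 1 in WT and 6.32% and 5.37% in the mutant. Ribosomal protein genes, whose processed copies make up many pseudogenes, had a median of 0.26, and 54 of 79 were higher in both mutant libraries, against 23.3% of all genes. By median-of-ratios scaling 47 of 79 were higher and by TMM scaling 45, and the shares of all genes under these scalings were not taken. Reads of such near-identical copies cannot be assigned with certainty. Leaving out pseudogenes left 92 higher and 75 lower genes.

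**Figure D4:**
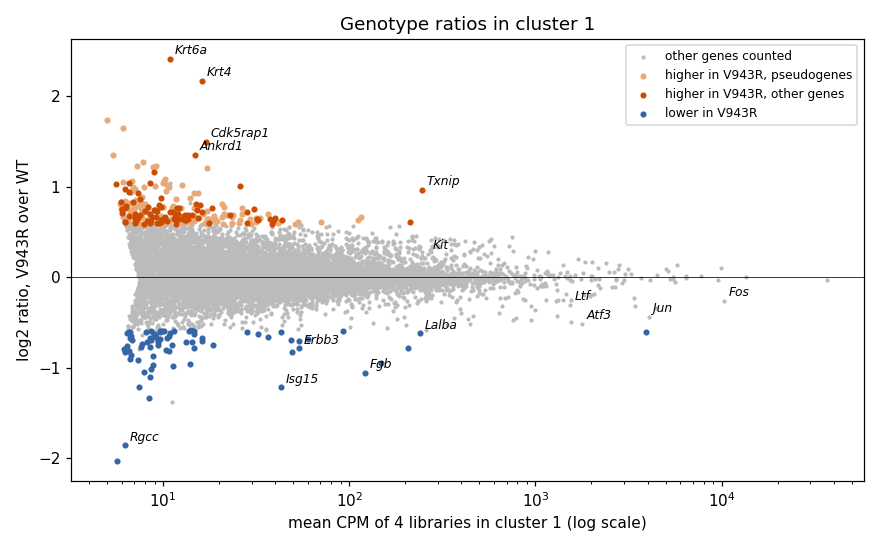
The log2 ratio of mutant over WT levels in cluster 1 is plotted for 10380 genes against their mean level over 4 libraries (CPM, log scale), with genes that met the 1.5-fold rule in colour and pseudogenes in pale orange. The coloured genes are mostly of low level, and Erbb3, Lalba, Fgb and Isg15 lie among the lower genes and Txnip among the higher ones.

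Of the 10 largest ratios towards the mutant, 6 belonged to pseudogenes (Gm6921, Gm8420, Gm4321, Gm5714, Rpl10-ps4 and AC153864.1). Krt6a, a keratin of stressed and stratified epithelium, had 3.0 and 4.0 CPM in WT and 14.2 and 22.5 CPM in the mutant. Krt4 had 6.3 and 6.0 CPM in WT and 13.2 and 39.5 CPM in the mutant. Neither keratin met the rule when the 260 cells of group 4 were left out, where they had 0.95 (Krt4) and 1.14 (Krt6a) as log2 ratios and too few UMIs. Cdk5rap1, which modifies mitochondrial transfer RNA, had 5.9 and 11.4 CPM in WT and 26.8 and 23.6 CPM in the mutant. Ankrd1 had 4.6 and 11.4 CPM in WT and 28.4 and 15.1 CPM in the mutant, and in group 1 alone 10.9 and 28.4 against 42.9 and 30.9 CPM.

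Txnip was the gene of highest level among the higher genes. It encodes thioredoxin-interacting protein, which restrains glucose uptake and is a known target of FOXO factors. It had 162 and 170 CPM in WT and 312 and 334 CPM in the mutant, with a log2 ratio of 0.97 (0.86 to 1.07). Its ratio was 0.72 (0.45 to 1.00) in cluster 2 and 0.45 (0.39 to 0.51) in clusters 4 to 11 (0.53 without cluster 11). Within cluster 1 it had 151 CPM in WT and 278 CPM in mutant cells of group 1, and 229 and 540 CPM in group 2. The other FOXO target genes did not move as one. Of the 10 counted, 3 were higher in both mutant libraries (Txnip, Klf9 and Sesn1) and 2 were lower (Trib1 and Gadd45a), and the median of the list was 0.13. Among all genes 23.3% were higher and 17.4% lower in both mutant libraries, so the counts of the list were near the background. Trib1, a pseudokinase that promotes protein degradation, had 545 and 519 CPM in WT and 389 and 399 CPM in the mutant, and did not meet the 1.5-fold rule.

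Cst3, Lalba and Sostdc1, which encode secreted proteins, were among the lower genes. Cst3 had 4859 and 4556 CPM in WT and 3134 and 3066 CPM in the mutant, a log2 ratio of -0.60 (-0.63 to -0.58), while it was -0.02 in cluster 2 and -0.23 in clusters 4 to 11 (-0.21 without cluster 11). Lalba had 249 and 330 CPM in WT and 176 and 202 CPM in the mutant (-0.62, -0.72 to -0.52). Sostdc1, a secreted inhibitor of Wnt and BMP signals, had 57.8 and 63.0 CPM in WT and 36.3 and 38.2 CPM in the mutant. For all of these the mutant libraries lay below both WT libraries. The fold itself rested on single libraries for some: Lalba had a log2 ratio of -0.39 without WT library B and -0.54 without mutant library A, and Cst3 had -0.56 without WT library A and -0.58 without mutant library B, all under 1.5-fold.

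Cst3, Lalba and Ltf are genes of group 2, which held a smaller share of the mutant cells, so their levels were also taken within groups. In group 2, Cst3 had 11097 and 9623 CPM in WT and 7312 and 7420 CPM in the mutant, and in group 1 it had 1120 and 1062 CPM against 1011 and 1047 CPM. Lalba had 569 and 785 CPM in WT and 508 and 543 CPM in the mutant cells of group 2, and 42.5 and 36.9 against 34.0 and 48.4 CPM in group 1, where the libraries overlapped. Ltf had 3748.5 and 3494 CPM in WT and 3104.5 and 3060 CPM in the mutant cells of group 2, and overlapped in group 1. Btn1a1 overlapped between genotypes in group 2, with 271 and 261 CPM in WT and 280 and 269 CPM in the mutant. The groups had been built with these genes, so the levels are a description.

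The progenitor markers differed little in level between genotypes. Their median log2 ratio was -0.06, against 0.02 for all genes, and none met the 1.5-fold rule. Of the 8, 1 was higher and 4 were lower in both mutant libraries, against 23.3% and 17.4% of all genes. By TMM scaling 6 were lower and by median-of-ratios scaling 5, and the shares of all genes under these scalings were not taken. Kit was higher in the mutant (240 and 245 CPM in WT, 285 and 293 CPM in the mutant; log2 ratio 0.26, 0.16 to 0.35). Ltf was lower (1770 and 1634 CPM in WT, 1406 and 1346 CPM in the mutant; -0.31), and so were Csn3 (-0.21), Aldh1a3 (-0.10) and Cd14 (-0.10) in both libraries. The 15 transcription factors had a median of 0.02 over the 14 counted, with Sox10 at 212 and 208 CPM in WT and 262 and 271 CPM in the mutant. The 9 milk and secretory genes counted had a median of -0.14, with 5 lower and 3 higher in both mutant libraries, against 17.4% and 23.3% of all genes. Without the 260 cells of group 4, 8 were counted, with a median of -0.057. Of these, 4 were lower and 1 was higher, against 16.9% and 24.0% of all genes. Of 15 mucosal defence genes counted, complement C3 met the rule as higher (7.6 and 10.3 against 16.8 and 14.01 CPM) and Tlr2, a receptor for bacterial lipoproteins, as lower (13.9 and 13.7 against 7.3 and 8.2 CPM), which among all genes 2.16% and 0.751% did. Without WT library A the log2 ratio of C3 was 0.58 and no longer met 1.5-fold. Without group 4, Tlr2, Slpi and Cxcl1 met the rule as lower, as did 71 of all 9843 genes counted. C3 met it as higher, as did 222 of all genes.

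Genes of the immediate-early response were lower in the mutant. Of 12 immediate-early and heat-shock genes counted, 10 were below both WT libraries in both mutant libraries, against 17.4% of all genes. The count was 10 under all 3 scalings used, and the share of all genes was taken only with library totals. Without the 260 cells of group 4, 9 of 12 were below, against 16.9% of all genes. None met the 1.5-fold rule, and the median log2 ratio was -0.28. Jun had 4596 and 4717 CPM in WT and 3439 and 3452 CPM in the mutant. Atf3, a stress-induced factor, had 2110 and 2100 CPM in WT and 1455 and 1490 CPM in the mutant, and Fos had 10989 and 11541 CPM in WT and 9277 and 9543 CPM in the mutant. The chaperone genes Hspa8 and Hsp90aa1 were the exceptions. Hspa8 had 154 and 145 CPM in WT and 208 and 231 CPM in the mutant, and Hsp90aa1 had 66.4 and 56.7 against 85.9 and 64.5 CPM, where the libraries overlapped. The same direction was seen in clusters 4 to 11, where the ratios were -0.29 for Jun, -0.25 for Atf3 and -0.24 for Fos, or -0.23, -0.22 and -0.20 without cluster 11. Such genes are known to respond to tissue dissociation, whose part in the result was not tested. Klf2, an early-response transcription factor outside the list, had 245 and 276 CPM in WT and 151 and 152 CPM in the mutant. It met the rule as lower, as did 0.751% of all genes, and was named after its values were seen.

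Interferon-stimulated genes were also lower. Of 8 counted, 7 were lower in both mutant libraries, against 17.4% of all genes, and the median log2 ratio was -0.54. Isg15 and Usp18 met the rule as lower, which 0.751% of all genes did. Without the 260 cells of group 4, 6 of 7 counted were lower in both libraries, against 16.9% of all genes. Isg15 still met the rule and Irf7 then met it too, with a log2 ratio of -0.61, while Usp18 had under 50 UMIs in either genotype and was not counted. Isg15, a ubiquitin-like modifier, had 49.2 and 70.4 CPM in WT and 31.7 and 21.4 CPM in the mutant (log2 ratio -1.22, -1.48 to -0.95), while its ratio in clusters 4 to 11 was -0.19, or -0.26 without cluster 11. The antiviral regulator Irf7 had 36.0 and 49.0 CPM in WT and 31.1 and 27.2 CPM in the mutant. The interferon-induced genes Ifi44 and Igtp, outside the list, are among the 10 largest ratios towards lower levels over all genes, with 9.9 and 10.8 against 5.3 and 3.8 CPM and 11.6 and 11.7 against 5.3 and 5.5 CPM. Igtp overlaps Irgm2. Without WT library B the log2 ratio of Isg15 was -0.92. Without mutant library B that of Usp18 was -0.38, under 1.5-fold. Of the 10 MHC class I genes, 5 were lower in both mutant libraries, against 17.4% of all genes, with a median of -0.17.

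The remaining large ratios towards lower levels were those of Rgcc, a regulator of the cell cycle (10.2 and 9.4 CPM in WT, 2.6 and 2.7 CPM in the mutant), Rasl11a (10.2 and 13.7 against 4.6 and 4.9 CPM), Tnfaip3, an inhibitor of NF-kappa-B (17.8 and 12.3 against 8.9 and 6.3 CPM), and Fgb, which encodes fibrinogen beta (181 and 145 against 92.2 and 65.6 CPM). Fgb and its partner Fgg are genes of the mature luminal clusters. Without the 260 cells of group 4, Fgb still met the rule, with 61.5 and 65.1 CPM in WT and 34.2 and 35.8 CPM in the mutant. Its level was similar in groups 1, 2 and 3, at 50.3, 45.9 and 51.6 CPM. The mature luminal cluster 11 held 15.4% of all WT cells and 4.85% of all mutant cells. What part of the Fgb and Fgg UMIs of cluster 1 came from free RNA of mature luminal cells was not tested. The other 3 of the 10 were Gm13736, Gm8242 and Gm43430, of which Gm43430 lies inside Nfkb1.

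Among genes of the cell cycle, 9 of 12 G2 and mitosis genes counted were higher in both mutant libraries, against 23.3% of all genes, with a median log2 ratio of 0.28. Top2a had 39.3 and 33.6 CPM in WT and 52.5 and 52.2 CPM in the mutant, and Nusap1 met the rule with 6.6 and 9.1 against 9.9 and 14.6 CPM. Without mutant library B the log2 ratio of Nusap1 was 0.32, and without WT library A it was 0.45. These levels were low beside those of cluster 2, where Top2a had 600 CPM. Without group 4, 8 genes of the list were counted, of which 3 were higher in both mutant libraries, against 24.0% of all genes, and the median was 0.38. Nusap1 then no longer met the rule (0.23), and Top2a had 21.8 and 14.3 CPM in WT and 26.6 and 26.2 CPM in the mutant. The libraries then overlapped for Ube2c, with 14.3 and 9.5 CPM in WT and 13.1 and 11.2 CPM in the mutant, and for Mki67. The 17 S phase genes counted had a median of 0.00. Of 12 ERK feedback genes counted, 2 were higher and 3 lower in both mutant libraries, near the 23.3% and 17.4% of all genes, with a median of -0.01. Etv5 was 1 of the higher genes, with 28.7 and 33.3 CPM in WT and 39.6 and 41.5 CPM in the mutant, and Dusp6 was 1 of the lower genes, with 394 and 434 against 342 and 353 CPM. Of 5 basal markers counted, 2 were higher in both mutant libraries, against 23.3% of all genes, and 0 were lower, against 17.4%, with a median of 0.43. By TMM or median-of-ratios scaling, for which the share of all genes was not taken, and without group 4, 1 was lower. Acta2 met the rule as higher (13.2 and 13.7 against 24.4 and 21.7 CPM), Tagln had 116 and 123 against 150 and 171 CPM, and Oxtr had 22.1 and 27.4 against 20.2 and 22.2 CPM, where the libraries overlapped. Esr1 met the rule as lower (10.6 and 10.3 against 6.6 and 7.1 CPM), with -0.57 without WT library A and -0.54 without mutant library A, both under 1.5-fold. Without group 4, Esr1 had too few UMIs to be counted (7.1 and 7.2 against 4.1 and 4.8 CPM), and none of the 10 mature luminal markers counted met the rule.

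**Figure D5:**
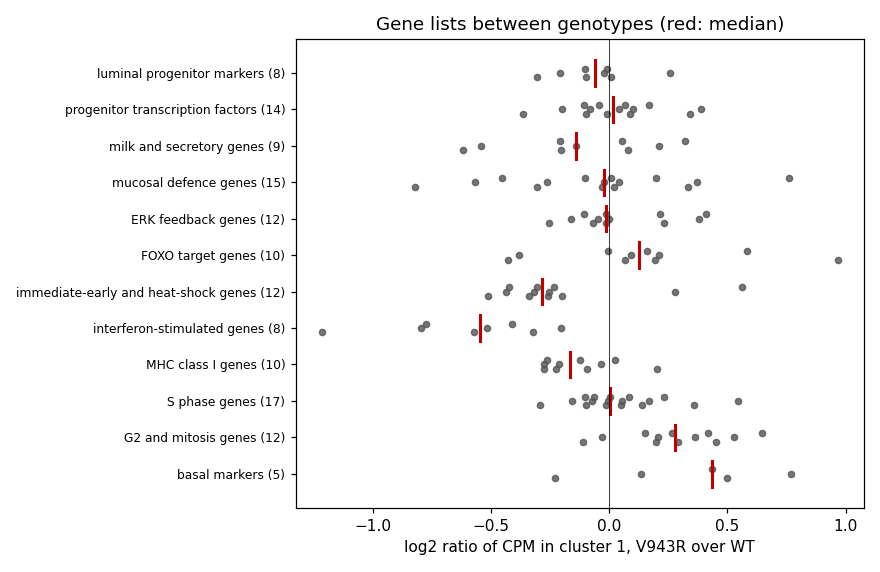
The log2 ratio of mutant over WT levels in cluster 1 is plotted for each counted member of 12 gene lists (grey points; number of members in brackets) with the median of the list in red. Immediate-early and interferon-stimulated genes lie mostly left of 0, with medians of -0.28 and -0.54, and G2 and mitosis genes mostly right of 0, with a median of 0.28.

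Which genes met the rule changed with the cells used. Leaving out group 4 was an alternative chosen after seeing the data. Without its 260 cells, 148 of the 224 higher and 49 of the 78 lower genes still met the rule. Without the 10% of cells with the fewest UMIs, 192 and 68 did. Without the 1918 cells with a UMI of Prlr, Esr1, Pgr or Cited1, 75 and 23 of these genes met it, and without the 1278 cells with a UMI of a G2 or mitosis gene, 80 and 31 did. The totals that met the rule moved less, since other genes entered. They were 222 and 71 without group 4, 207 and 69 without the 1918 cells, and 178 and 85 without the 1278 cells. Erbb3 had a log2 ratio of -0.77 without group 4.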

How the data were processed

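The authors sorted luminal cells, sequenced them on the 10x Chromium platform (3' version 2 chemistry), and deposited a signal table in which the UMIs of each cell are multiplied by 1 factor per cell. Their clusters and luminal classes were made in Partek Flow and used as deposited. The submitters' processing notes name CASAVA 1.8, bcl2fastq 2.20, GSNAP 2013-10-10 and GRCm38. UMIs were recovered per cell by taking its lowest value above 0 as 1 UMI and rounding, with a largest distance from a whole number of 0.00989. UMIs were summed per library. No count model was fitted and no p-value was taken from cells, since each genotype was 1 pool. Intervals are exact Poisson, conditional binomial or Clopper-Pearson, and log-normal for ratios of shares.

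The members, gene lists and rules were chosen with earlier results of these data known. Genes named were the markers, the ErbB receptors, the 10 largest ratios per comparison under its rule (4-fold over clusters 4 to 11, 1.5-fold elsewhere, at least 50 UMIs, every library), and up to 4 members per list. Other genes and list members were named after their values were seen. Genes were placed on GRCm38 with GENCODE M21.

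Groups within cluster 1 came from Leiden clustering at a resolution of 0.4 with seed 1. The rules were tried on simulated counts. How often they call genes of low count through counting error is not reported here. Alternatives were other scalings, minimums, folds, cell filters and leaving out each library. Software was Python 3.11.15, numpy 2.4.6, pandas 2.3.3, scipy 1.17.1, scanpy 1.11.5 and leidenalg 0.10.2.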

Additional observations from a re-analysis of the deposited data

How the results depend on the processing

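The ratio of the shares of cluster 1 was 1.34 with all cells. It was 1.19 over clusters 1 to 10, 1.01 over clusters 1 and 2 and 1.58 once the 10% of cells lowest in UMIs were left out. In 5 bins of depth, chosen after seeing the data, it was 1.26, 2.06, 1.68, 1.5 and, in the deepest bin, 0.988 (0.803 to 1.21). The last lay on the other side of 1 with an interval that spans 1, and the cause was not tested. The counts of genes between genotypes (224 higher, 78 lower) were 603 and 212 at a minimum of 20 UMIs, 90 and 28 at 100 UMIs, 1876 and 1434 at 1 UMI, 26 and 9 at 2-fold and 941 and 398 at a difference of 25%. Leaving out 1 library gave 145 to 392 higher and 66 to 181 lower genes. The rule then had 1 library of that genotype to place beyond the other genotype. Of the 224 higher genes, 184 and 148 still met it without WT library A or B, and 74 and 86 without mutant library A or B. Of the 78 lower genes, 32, 28, 62 and 59 did, in the same order. The widest changes were 392 higher without WT library A and 363 without WT library B, 145 higher and 127 lower without mutant library A, and 181 lower without mutant library B (the cause was not tested). Among genes at least as high in cluster 1 as in clusters 4 to 11, 49 were lower. Leaving out pseudogenes, chosen after seeing the data, left 92 higher. TMM factors gave 185 higher and 100 lower genes, and median-of-ratios factors 197 and 89. The Erbb3 ratio stayed between -0.88 and -0.68 under its 7 alternatives, and the counts between clusters stayed within 1.5 times of 814, 466 and 584. The groups within cluster 1 numbered 3 at a resolution of 0.2 and 14 at 0.8. No paired analysis was possible because the replicate numbers of the labels could not be tied to the libraries of the table and no test was made. The cells of cluster 1 were shallow, so genes under 50 UMIs were not compared between genotypes.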
